A study of Mus musculus with 9 samples.

Results

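Efferocytosis is the removal of dead cells by phagocytes. A set of 9 genes of that process was followed in macrophages sorted from healing mouse skin: the receptor genes Mertk, Axl, Timd4, Stab1 and Itgb5, the genes Gas6, Pros1 and Mfge8 of secreted proteins that bridge a dying cell to a receptor, and Elmo1, whose product carries the signal for engulfment. They were chosen by symbol as known components of the process, with earlier results of these data known. All 9 are among the 18303 genes of the count table. There were 5 libraries from day 14 after skin injury and 4 from day 4. Both groups were C57BL/6J wild-type mice with no further treatment, and in both the sorted cells were CD45+CD11b+F4/80+, that is, cells of blood origin with surface proteins of macrophages. No unwounded skin and no time between or after these is included.

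A dying cell displays the lipid phosphatidylserine on its surface, and macrophages bind it either directly, as the TIM-4 receptor and stabilin-1 do, or through a bridging protein. Gas6 and protein S, both modified with the help of vitamin K, bridge the lipid to the receptor kinases Tyro3, Axl and Mertk, called the TAM receptors. Milk fat globule protein E8 bridges it to integrins that pair the alpha v chain with a beta 3 or beta 5 chain. Several of these pathways lead to the ELMO and DOCK proteins, which switch on the GTPase Rac so that the membrane wraps around the cell. In skin wounds, macrophages clear spent neutrophils in this way.

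Levels are given as CPM, the counts relative to library size, scaled between libraries by the TMM method. A gene is called higher or lower where edgeR's quasi-likelihood test gave a Benjamini-Hochberg adjusted p under 0.05 over the 13322 genes tested. Of the 9 genes, 4 were called higher at day 14 (Timd4, Pros1, Axl and Elmo1), beside 16.1% of all genes tested. A further 2 were called lower (Itgb5 and Mertk), beside 14.9% of all genes tested. The median log2 fold change of the 9 was 0.21, against 0.01 over all genes tested. In 5 of the 9 the libraries of the days did not overlap, 4 of them higher and 1 lower at day 14, beside 13.0% and 12.7% of all genes tested. Because RNA of many cells was pooled in each library, fewer cells that express a gene and less of its RNA per cell cannot be told apart.

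Total counts ran from 17982637 to 57809940 per library, and 14537 to 16233 genes held a count. The counts of day 14 replicate 5 stop partway along chromosome 9: of 811 well-counted genes beyond that point 808 were at 0 in it, against 0 of 9615 before it. All 9 genes lie before it. Libraries of the same day all differed by more than counting noise (chi-square divided by its degrees of freedom, 11.4 to 78.4). Separate animals are not stated for the libraries, and the p-values therefore reflect only the spread among these samples, which may be technical. Macrophage and sort markers summed to 24331 to 27082 CPM at day 14, against 21586 to 25145 CPM at day 4. The largest part was Lyz2, with means of 11439 CPM at day 14 and 10714 CPM at day 4. Of these 9 markers, 3 were called higher and 3 lower. The higher ones were Ptprc, Emr1 and Mrc1 (log2 fold changes 0.39, 0.38 and 0.80). Itgam, Cd68 and Fcgr1 were lower (-0.44, -0.47 and -1.10). Fibroblast markers were also present in every library, at summed levels of 5555 to 9106 CPM at day 14, against 10136 to 20342 CPM at day 4, with 7 of 10 called lower, 0 higher and none at 0.

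**Figure D1:**
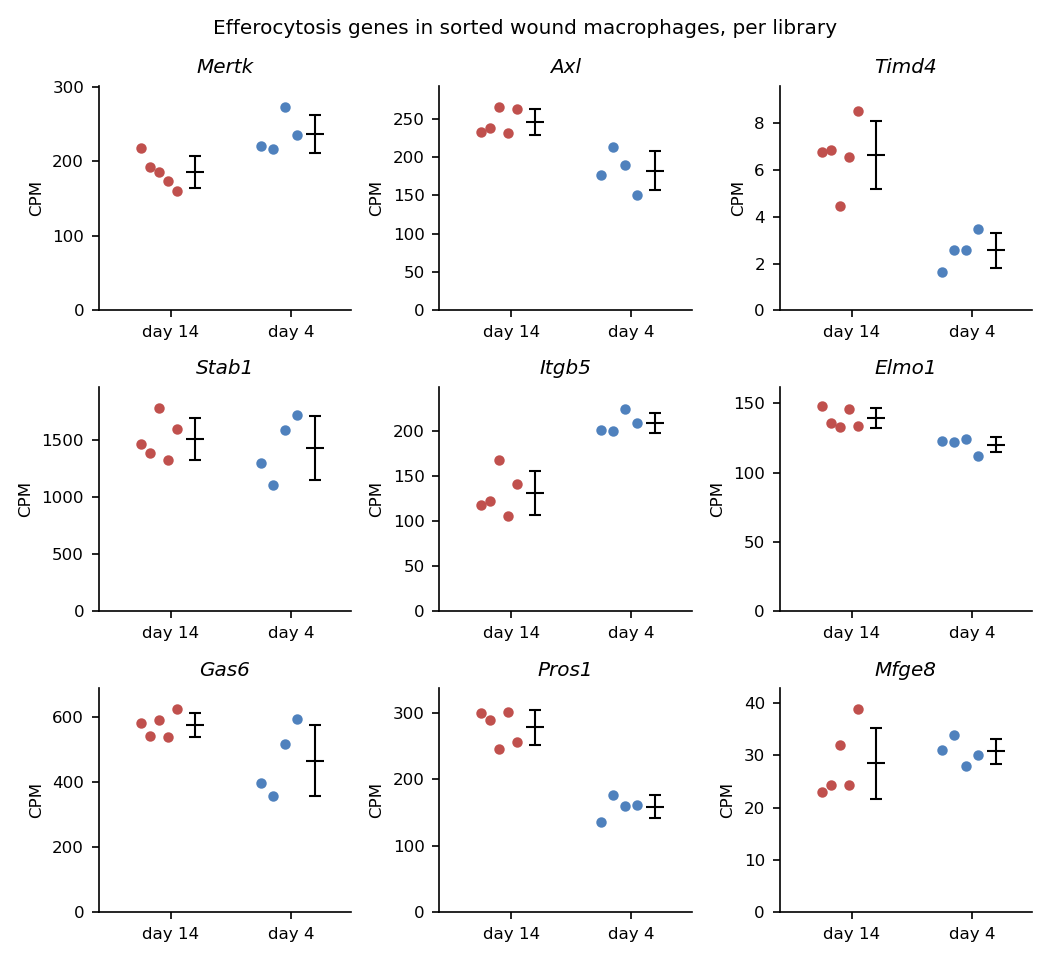
Level of each gene in CPM (vertical axis, starting at 0) in the 5 day 14 libraries (left, red) and the 4 day 4 libraries (right, blue). Black marks show the mean and the SD. The libraries of the days are fully apart for Axl, Timd4, Itgb5, Elmo1 and Pros1.

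The promoters of the genes with the clearest changes in each direction, and of Mertk, are shown. They are the 250 bases before a transcript start site in RefSeq annotation on GRCm38.p6, each read 5′ to 3′ on the plus strand, which is the coding strand of these genes. Capitals mark every match, on either strand, to one of 6 motifs that were searched: GGGCGG (the GC box), TATAA (the TATA motif), GAGGAA (a core of ETS factor motifs), CACGTG (the E-box), AGGTCA (a nuclear receptor half-site) and TGANTCA (the AP-1 motif). The windows are chr11:46810549-46810798 for Timd4, chr16:62854057-62854306 for Pros1, chr16:33829415-33829664 for Itgb5 and chr2:128698665-128698914 for Mertk. For Timd4 that start site is at 46810799, downstream of the first base of the gene as annotated, 46810786, so the end of its window lies within the gene.
Timd4: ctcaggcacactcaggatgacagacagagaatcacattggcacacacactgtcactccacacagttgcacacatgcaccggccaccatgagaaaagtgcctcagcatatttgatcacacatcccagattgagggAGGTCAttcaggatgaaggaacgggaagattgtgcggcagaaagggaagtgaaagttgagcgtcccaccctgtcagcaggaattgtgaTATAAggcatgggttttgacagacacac
Pros1: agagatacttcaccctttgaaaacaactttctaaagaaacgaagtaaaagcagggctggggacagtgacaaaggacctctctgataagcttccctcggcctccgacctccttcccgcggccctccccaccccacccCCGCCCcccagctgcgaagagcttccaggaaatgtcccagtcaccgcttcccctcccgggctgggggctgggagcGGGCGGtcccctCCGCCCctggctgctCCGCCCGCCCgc
Itgb5: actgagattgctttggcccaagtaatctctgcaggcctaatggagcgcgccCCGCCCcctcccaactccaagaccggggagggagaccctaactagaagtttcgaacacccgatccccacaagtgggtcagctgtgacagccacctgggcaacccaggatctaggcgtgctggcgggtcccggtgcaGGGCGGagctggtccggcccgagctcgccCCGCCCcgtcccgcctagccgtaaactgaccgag
Mertk: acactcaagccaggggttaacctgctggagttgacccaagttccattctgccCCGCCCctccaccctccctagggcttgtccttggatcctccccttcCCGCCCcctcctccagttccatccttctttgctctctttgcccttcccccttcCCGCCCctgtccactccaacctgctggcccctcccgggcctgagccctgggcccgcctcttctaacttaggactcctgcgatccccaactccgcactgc

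The Timd4 promoter holds 4 CG pairs, with TATAA starting 28 bases and AGGTCA starting 116 bases before the start site, and no GC box. That of Pros1 holds 15 CG pairs, 64.4% G or C and 5 GC boxes, starting 114, 39, 27, 12 and 8 bases before the start site, the last 2 overlapping. That of Itgb5 has 18 CG pairs, 65.2% G or C and 3 GC boxes, starting 199, 63 and 34 bases before the start site. The Mertk promoter has 3 GC boxes too, starting 198, 152 and 99 bases before the start site, with 7 CG pairs and 63.6% G or C. All other motifs searched have no match in these 4 windows. Over the 32851 mouse promoters of the same table, the median was 52.4% G or C and 6.00 CG pairs. A GC box is held by 32.7% of them, TATAA by 22.8%, GAGGAA by 23.3%, AGGTCA by 14.0%, TGANTCA by 6.75% and CACGTG by 6.02%. These matches describe the sequence and do not show that a factor binds there.

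The TAM receptor genes moved in opposite directions. Axl (chromosome 7, 25756500 to 25788924, GRCm38) encodes a receptor that Gas6 activates. It had 232, 237, 265, 231 and 262 CPM at day 14, against 176, 213, 189 and 151 CPM at day 4. Every day 14 library was above every day 4 library. Means were 245 ± 16.7 CPM at day 14 and 182 ± 25.9 CPM at day 4 (SD, n = 5 and 4). The log2 fold change was 0.43 ± 0.10 (SE), or 1.35-fold higher, with an adjusted p of 0.00799 in edgeR's test. Within day 4, Axl and the summed fibroblast markers were both highest in replicate 2 (20342 CPM for the markers) and lowest in replicate 4 (10136 CPM). Within day 14 both were highest in replicates 3 and 5. Between the days they differed in opposite directions. The part of fibroblasts in Axl was not tested beyond the covariate fit below.

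Mertk (chromosome 2, 128698915 to 128803162) encodes the TAM receptor that serves as a main receptor for dead cells on macrophages. It had 218, 192, 185, 173 and 160 CPM at day 14, against 221, 216, 273 and 235 CPM at day 4. The days overlapped, since day 14 replicate 1 lay between the lower pair of day 4 libraries, and the other day 14 libraries lay below all of day 4. The means were 185 ± 21.8 CPM at day 14 and 236 ± 25.9 CPM at day 4, with a log2 fold change of -0.35 ± 0.11, or 1.27-fold lower (adjusted p = 0.0248, edgeR). This call was the less firm of the pair: it was lost in 7 of 22 other settings, among them the fits without day 4 replicate 3, without day 14 replicate 4 and without day 14 replicate 5 (log2 fold changes -0.29, -0.32 and -0.30, adjusted p = 0.0630, 0.0559 and 0.0565). The Mertk log2 fold change stayed negative in all 22, between -0.54 and -0.22. Its smallest size, -0.22 ± 0.09, came with library size as a covariate, where the call was lost (adjusted p = 0.108, edgeR). On each day Mertk was highest in the libraries with the most total counts, replicates 3 and 4 of day 4 and replicate 1 of day 14.

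Within each library, the balance of the pair can be read without any scaling between libraries. The log2 ratio of Axl to Mertk counts was 0.09, 0.31, 0.52, 0.42 and 0.71 at day 14, against -0.33, -0.02, -0.53 and -0.64 at day 4. Axl counts thus exceeded Mertk counts in 5 of 5 day 14 libraries and in 0 of 4 day 4 libraries, with linear ratios of 1.06 to 1.63 at day 14 and 0.640 to 0.983 at day 4. The difference of means was 0.79 on the log2 scale, or 1.73-fold (exact two-sided permutation test, p = 0.00794, the smallest that 126 splits allow, and 0.0119 adjusted over the 3 ratios tested). Exon lengths of the pair are close, at 4283 bases for Axl and 4302 bases for Mertk. The ratio was lowest in the libraries with the most total counts of each day. These were day 4 replicates 3 and 4 (50162720 and 57809940 counts) and day 14 replicate 1 (50445185 counts). The part of library depth in this ratio was not tested beyond the settings given.

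The other TAM receptor gene, Tyro3, was near the floor of detection, at 0.379 ± 0.206 CPM at day 14, against 1.13 ± 0.562 CPM at day 4. It was called lower (log2 fold change -1.58 ± 0.46, adjusted p = 0.0214, edgeR), and the days overlapped.

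Timd4 (chromosome 11, 46810786 to 46844333) had the largest fold change of the 9 genes and the lowest level. Its product, TIM-4, binds phosphatidylserine directly and is known from tissue-resident macrophages. It had 6.78, 6.84, 4.45, 6.57 and 8.53 CPM at day 14, against 1.64, 2.59, 2.58 and 3.47 CPM at day 4. The lowest day 14 library, replicate 3, was still above the highest day 4 library. The means were 6.63 ± 1.45 CPM at day 14 and 2.57 ± 0.746 CPM at day 4 (SD, n = 5 and 4), a log2 fold change of 1.34 ± 0.23, or 2.54-fold higher (adjusted p = 0.000977, edgeR). The values rest on 38 to 308 counts per library. The call was kept in all 22 other settings, with log2 fold changes of 1.19 to 1.62 and adjusted p-values up to 0.0429.

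Stab1 (chromosome 14, 31139017 to 31168651), the scavenger receptor stabilin-1, was the most abundant of the 9 by CPM and was not called. It had 1465, 1389, 1785, 1324 and 1594 CPM at day 14, against 1300, 1103, 1592 and 1721 CPM at day 4. The days overlapped over most of their range. The log2 fold change was 0.08 ± 0.14 (adjusted p = 0.683, edgeR), and it changed sign without day 4 replicate 2, at -0.03. In exons, 112 bases or 1.4% of the gene are shared with Nt5dc2 on the opposite strand, and the library kit does not mark strand.

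Itgb5 (chromosome 16, 33829665 to 33949338) encodes the integrin beta 5 chain, which pairs with alpha v to bind milk fat globule protein E8. It had 118, 122, 168, 106 and 141 CPM at day 14, against 201, 200, 224 and 209 CPM at day 4. All day 14 libraries lay below all day 4 libraries, and the day 14 libraries were the more scattered, with a coefficient of variation of 18.7% at day 14 and 5.18% at day 4. Means were 131 ± 24.5 CPM at day 14 and 209 ± 10.8 CPM at day 4, a log2 fold change of -0.67 ± 0.12, or 1.59-fold lower (adjusted p = 0.00145, edgeR). Without replicate 3, the highest of day 14, the log2 fold change of Itgb5 was -0.78 ± 0.10. That library had the highest summed neutrophil markers of its day (1537 CPM against 191 to 705 CPM). It was also the highest in endothelial (70.6 CPM) and keratinocyte markers (9.88 CPM). Within day 14, Itgb5 and fibroblast markers were both highest in replicates 3 and 5 (8132 and 9106 CPM for the markers). Within day 4, Itgb5 was lowest in replicate 2, where fibroblast markers were highest (20342 CPM). The part of any of these cells in Itgb5 was not tested beyond the covariate fit. With the mean level of fibroblast markers as a covariate the call was lost, at -0.51 ± 0.19 (adjusted p = 0.130).

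Both integrin chains that work beside beta 5 in this role were lower as well. Itgav, the alpha v chain that beta 5 needs, had 197, 174, 153, 262 and 195 CPM at day 14, against 369, 331, 223 and 260 CPM at day 4. One day 14 library, replicate 4, reached into the day 4 range. Its log2 fold change was -0.59 ± 0.17 (adjusted p = 0.0195, edgeR). Itgb3, the beta 3 chain, averaged 15.9 ± 1.92 CPM at day 14 and 30.1 ± 5.67 CPM at day 4, with no overlap (log2 fold change -0.92 ± 0.13, adjusted p = 0.000298).

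Of the bridging proteins, Pros1 gave the firmest call. It lies on chromosome 16, 62854307 to 62929346, and encodes protein S, a plasma anticoagulant that macrophages also make and that activates Mertk and Tyro3. It had 299, 289, 245, 301 and 256 CPM at day 14, against 136, 177, 160 and 162 CPM at day 4. The days were far apart, with a wide gap between the lowest day 14 and the highest day 4 library. The means were 278 ± 25.8 CPM at day 14 and 159 ± 16.8 CPM at day 4 (SD, n = 5 and 4), a log2 fold change of 0.81 ± 0.10, or 1.75-fold higher (adjusted p = 0.000110, edgeR). In the 22 other settings it ranged from 0.74 to 0.86 and was called in each.

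Gas6 (chromosome 8, 13465374 to 13494535), the bridge that binds Axl most tightly, was more abundant than Pros1 and was not called. It had 582, 544, 591, 540 and 626 CPM at day 14, against 397, 357, 519 and 595 CPM at day 4. The day 14 libraries lay close together and the day 4 libraries fell into a lower and a higher pair, of which only replicate 4 reached the day 14 range. The lower pair had 26479019 and 27381292 total counts and the higher pair 50162720 and 57809940. At day 14, replicate 1 had 50445185 total counts, against 17982637 to 25073562 in the others, and its Gas6 level lay within their range. The log2 fold change was 0.30 ± 0.14 (adjusted p = 0.113, edgeR). It passed the threshold in 3 of 22 other settings: 0.60 ± 0.12 among the 6 libraries under 30000000 counts (adjusted p = 0.0105), 0.47 ± 0.15 with library size as a covariate (adjusted p = 0.0326), and 0.42 ± 0.13 without day 4 replicate 4 (adjusted p = 0.0294).

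A like split of the day 4 libraries was seen in the values of Stab1 and in the complement C1q genes, whose product tags dying cells for uptake. C1qc, chosen after its values were seen, had 789, 762, 970, 788 and 865 CPM at day 14, against 633, 581, 786 and 954 CPM at day 4 (adjusted p = 0.356, edgeR). For Stab1 and C1qc too, the deep day 14 replicate 1 lay within the range of the other day 14 libraries. The part of library depth in these values was not tested beyond the settings given.

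The balance of the vitamin K-dependent bridges was less clear than that of their receptors. The log2 ratio of Gas6 to Pros1 counts was 0.96, 0.91, 1.27, 0.84 and 1.29 at day 14, against 1.54, 1.01, 1.70 and 1.87 at day 4. The days overlapped through day 4 replicate 2. The difference of means was -0.48 (exact two-sided permutation test, p = 0.0556, and 0.0556 adjusted over the 3 ratios), and without day 4 replicate 2 it was -0.65 (exact permutation p adjusted to 0.0179).

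**Figure D2:**
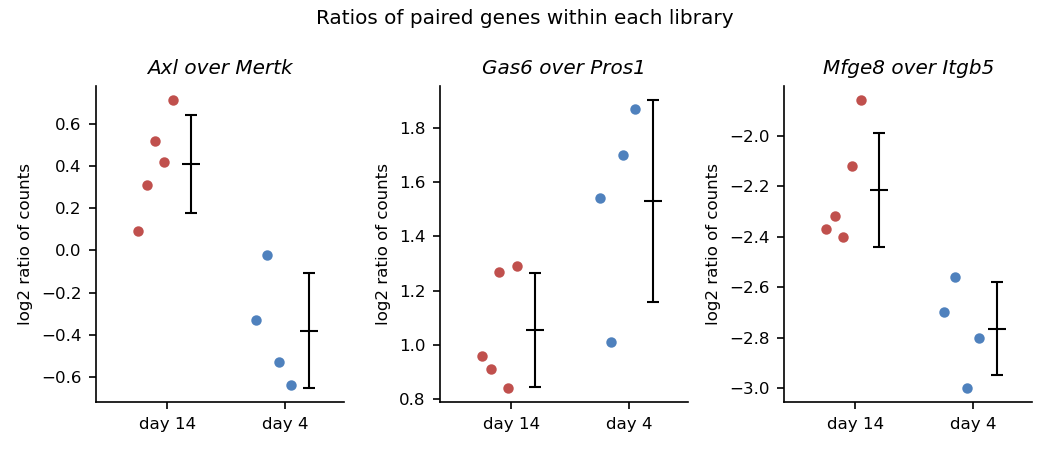
Log2 ratio of the counts of paired genes within each library (vertical axis), for the 5 day 14 libraries (left, red) and the 4 day 4 libraries (right, blue), with mean and SD in black. The ratios of Axl over Mertk and of Mfge8 over Itgb5 do not overlap between days, and those of Gas6 over Pros1 do.

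Mfge8 (chromosome 7, 79133768 to 79149060), the bridge to alpha v integrins, was low and was not called. It had 22.9, 24.4, 32.0, 24.3 and 38.8 CPM at day 14, against 31.0, 33.8, 28.0 and 30.1 CPM at day 4. Replicates 1, 2 and 4 of day 14 lay below all of day 4 and replicate 5 lay above all of it. The coefficient of variation was 23.8% at day 14 and 7.80% at day 4, and the log2 fold change was -0.11 ± 0.15 (adjusted p = 0.596, edgeR). It was 0.28 ± 0.18 with the fibroblast covariate (adjusted p = 0.374) and -0.25 without day 14 replicate 5.

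Relative to its integrin chain, Mfge8 was higher at day 14. This went with the lower level of Itgb5 (log2 fold change -0.67), since Mfge8 itself was not called (-0.11). The log2 ratio of Mfge8 to Itgb5 counts was -2.37, -2.32, -2.40, -2.12 and -1.86 at day 14, against -2.70, -2.56, -3.00 and -2.80 at day 4. Every day 14 library was above every day 4 library. The difference was 0.55, or 1.47-fold (exact two-sided permutation test, p = 0.00794, the smallest possible, and 0.0119 adjusted over the 3 ratios).

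Elmo1 (chromosome 13, 20090507 to 20608353), the adaptor that joins receptors to DOCK proteins, showed a small difference with little scatter. It had 148, 136, 133, 146 and 134 CPM at day 14, against 123, 122, 124 and 112 CPM at day 4. The days did not overlap, by a narrow gap. Means were 140 ± 7.02 CPM at day 14 and 120 ± 5.55 CPM at day 4, a log2 fold change of 0.21 ± 0.07, or 1.16-fold higher (adjusted p = 0.0416, edgeR). The call was lost in 13 of the 22 other settings, among them every fit without 1 library except that without day 14 replicate 3. Over all 22, its log2 fold change ranged from 0.15 to 0.24.

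Dock1, the usual partner of Elmo1, moved by a like amount. It had 102, 92.7, 95.6, 104 and 97.9 CPM at day 14, against 78.1, 88.4, 86.1 and 78.6 CPM at day 4, with no overlap. Its log2 fold change was 0.25 ± 0.07 (adjusted p = 0.0223, edgeR).

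**Figure D3:**
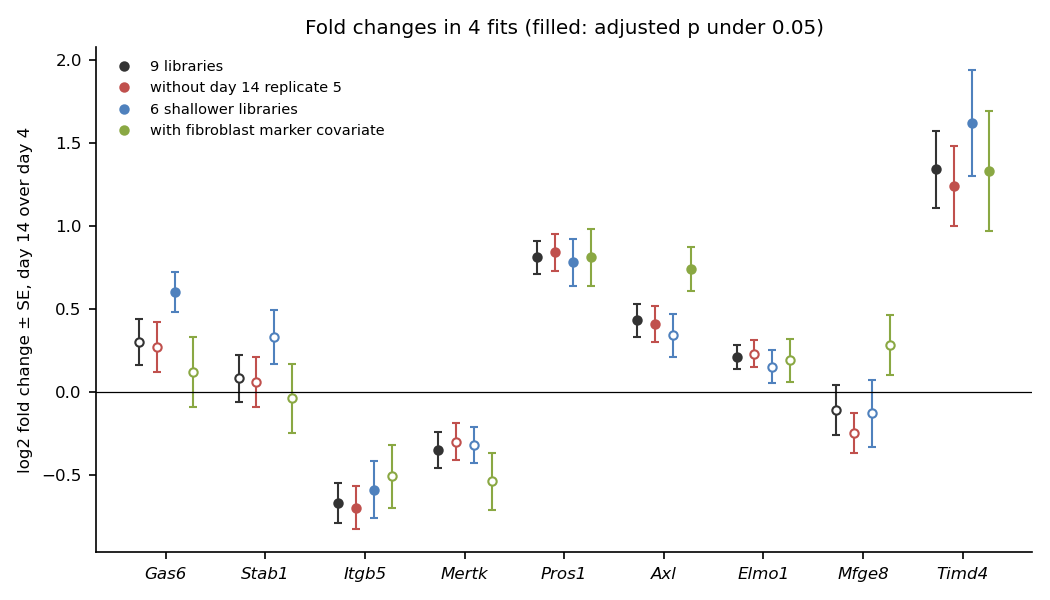
Log2 fold change of day 14 over day 4 (vertical axis, bars show the SE) for each gene in 4 fits. These use all 9 libraries, leave out day 14 replicate 5, keep the 6 shallower libraries, or add the fibroblast marker level as a covariate. Filled points passed an adjusted p of 0.05, and Pros1 and Timd4 are filled in all 4.

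Since fibroblast markers differed between the days and fibroblasts themselves express several of these genes, their level was also fitted as a covariate. The summed levels of these markers did not overlap between the days, so this fit cannot cleanly separate them from day. With it, Timd4, Pros1 and Axl were still called, at log2 fold changes of 1.33 ± 0.36, 0.81 ± 0.17 and 0.74 ± 0.13 (adjusted p = 0.0429, 0.0140 and 0.00588, edgeR). Calls of Mertk, Itgb5 and Elmo1 were lost, at -0.54 ± 0.17, -0.51 ± 0.19 and 0.19 ± 0.13 (adjusted p = 0.0685, 0.130 and 0.395). Their SEs were larger than without the covariate (0.11, 0.12 and 0.07). The fold change of Mertk was larger in size than its -0.35 without the covariate. A kept or lost call here therefore does not show what part fibroblasts had, which was not tested. Over all genes tested, this covariate lowered the calls to 670 higher and 487 lower, against 2151 higher and 1982 lower without it. Of the 9 genes, 3 were higher and 0 lower with it, beside 5.03% and 3.66% of all genes. Without day 14 replicate 5, 3 of the 9 genes were higher and 1 lower, beside 1987 higher and 1810 lower of the 13253 genes tested there.

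Other marker lists moved too, and their part in the results was not tested. Summed levels leave out markers that lie where day 14 replicate 5 has no counts (Thy1 of the fibroblast list, Camp, Ltf and Ngp of the neutrophil list, Xcr1 of the dendritic cell list, Ccr3 of the eosinophil list, and Cd3e, Cd3d and Cd3g of the T cell list). Dendritic cell markers summed to 245 to 317 CPM at day 14, against 105 to 156 CPM at day 4 (5 of 7 tested higher, 0 lower). Eosinophil markers summed to 25.9 to 33.2 CPM at day 14, against 7.85 to 13.7 CPM at day 4 (4 of 4 tested higher, Ccr3 included), with Epx below 1 CPM in all libraries. Ccr3 itself had 46.1, 37.8, 19.1 and 38.2 CPM in day 14 replicates 1 to 4, against 11.6, 9.58, 8.30 and 8.37 CPM at day 4. Platelet markers summed to 392 to 458 CPM at day 14, against 666 to 767 CPM at day 4 (1 of 4 tested higher, 2 lower), with Gp9 and Gp1bb below 1 CPM in all libraries. Most of that sum was Pf4, which macrophages can express.

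Neutrophil markers, of a cell that macrophages engulf in wounds, summed to 191 to 1537 CPM at day 14, against 881 to 2185 CPM at day 4 (0 of 6 tested higher, 1 lower). The lower one was Mmp9, at 61.5 ± 24.4 CPM at day 14, against 508 ± 153 CPM at day 4. In day 4 replicate 4 it made up 611 of 1181 CPM. Retnlg, Cxcr2, S100a8, S100a9 and Ltf were not called, and each overlapped between the days. Endothelial markers overlapped between the days: they summed to 46.4, 70.6 and 44.4 CPM in day 14 replicates 1, 3 and 5, against 43.1 to 50.7 CPM at day 4, and replicates 2 and 4 of day 14 lay below all of day 4 (2 of 5 higher, 0 lower). Mast cell markers stood at 10.5 to 19.0 CPM at day 14, against 11.9 to 25.3 CPM at day 4 (2 of 4 higher, 1 lower). Keratinocyte markers were at 4.11 to 9.88 CPM at day 14, against 0.773 to 5.10 CPM at day 4 (3 of 4 tested higher, 0 lower). Of the T cell markers only Cd4, which other cells also express, was tested, and it was higher.

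Per kilobase of exon, a scale on which levels of different genes can be set side by side, Gas6 and Stab1 led on both days. Gas6 stood at 226 ± 14.0 CPM per kb at day 14 and 183 ± 43.0 at day 4, and Stab1 had a mean of 189 at day 14 (range 166 to 223) and 179 at day 4 (range 138 to 215). Their ranges overlapped on both days. Below them the order differed between the days. At day 14 it ran Pros1 (84.2 ± 7.82 CPM per kb), Axl (57.3 ± 3.90), Mertk (43.1 ± 5.07) and Itgb5 (38.6 ± 7.24). At day 4 it ran Itgb5 (61.5 ± 3.18 CPM per kb), Mertk (54.9 ± 6.01), Pros1 (48.1 ± 5.08) and Axl (42.5 ± 6.06).

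At day 14 the libraries of Mertk and Itgb5 overlapped and the other neighbours among these 4 did not. At day 4 each neighbouring pair of the 4 overlapped, while Itgb5 lay wholly above Pros1 and Axl, and Mertk wholly above Axl. Elmo1 (22.4 ± 1.13 CPM per kb at day 14 and 19.3 ± 0.892 at day 4), Mfge8 (13.4 ± 3.20 at day 14 and 14.5 ± 1.13 at day 4) and Timd4 (3.05 ± 0.668 at day 14 and 1.18 ± 0.343 at day 4) followed on both days, with no overlap between neighbours.

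**Figure D4:**
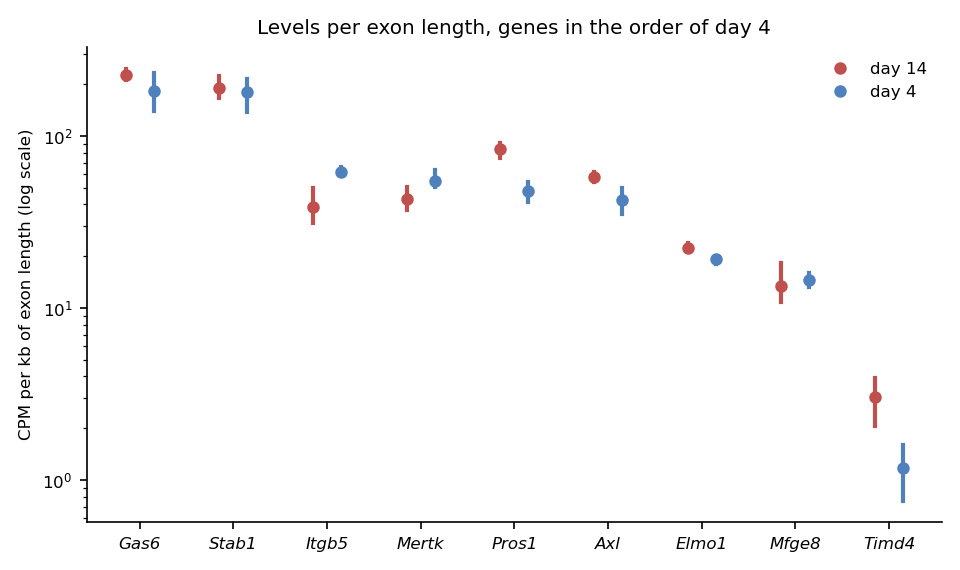
Level per kilobase of exon (vertical axis, log scale) of each gene, in the order of its day 4 level. Points are means and lines run from the lowest to the highest library, with day 14 left (red) and day 4 right (blue). Pros1 and Axl lie above Itgb5 and Mertk at day 14, and below them at day 4.

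Beyond these 9 genes, 97 tested genes of 8 lists of the process were described: 13 were called higher, 22 lower and 62 were not called, with a median log2 fold change of -0.10. The counts of these lists stand beside 16.1% higher and 14.9% lower over all genes tested, beside 5.03% and 3.66% with the fibroblast covariate, and beside 7.59% and 7.67% among the 6 shallower libraries. Among the other receptors, 4 of 14 tested were higher and 6 lower, with a median log2 fold change of -0.53 (1 higher and 4 lower with the fibroblast covariate, and 1 and 5 among the shallower libraries). Havcr2, the TIM-3 receptor of the family of Timd4, had 59.6, 56.6, 63.5, 58.0 and 56.3 CPM at day 14, against 118, 114, 93.4 and 94.4 CPM at day 4. It was thus lower in all day 14 libraries, the opposite of Timd4 (log2 fold change -0.84 ± 0.09, adjusted p = 3.66e-05, edgeR).

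Trem2, a lipid-sensing receptor, was lower at 134 ± 7.84 CPM at day 14, against 215 ± 18.4 CPM at day 4 (adjusted p = 8.98e-05, edgeR). Lrp1, a large endocytic receptor that also takes up dying cells, was lower at 1171 ± 185 CPM at day 14, against 2150 ± 220 CPM at day 4 (adjusted p = 0.000261). Cd300lb, a myeloid receptor for phosphatidylserine, was higher at 286 ± 40.1 CPM at day 14, against 159 ± 13.9 CPM at day 4 (adjusted p = 0.000167). The scavenger receptor gene Cd36 was higher too, at 1319 ± 429 CPM at day 14, against 850 ± 120 CPM at day 4, with overlap (adjusted p = 0.0360). The other pair called higher, Stab2 and Megf10, averaged 1.43 and 0.615 CPM at day 14 and 0.748 and 0.259 CPM at day 4. Both overlapped between the days.

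Of the other bridging proteins, 0 of 9 tested were called higher and 2 lower, with a median log2 fold change of 0.12 (0 and 1 without day 14 replicate 5, and 0 and 0 with the fibroblast covariate, or 0 and 1 there at an unadjusted p under 0.05). Thbs1, thrombospondin 1, which bridges dying cells to CD36 and an integrin, had 6472, 5581, 10934, 8600 and 8086 CPM at day 14, against 21795, 16161, 13439 and 14707 CPM at day 4. All day 14 libraries were below all day 4 libraries (log2 fold change -1.06 ± 0.19, adjusted p = 0.00145, edgeR). Ptx3, a secreted pentraxin, was lower with overlap (adjusted p = 0.0308, edgeR). It had 118 ± 26.5 CPM at day 14, against 184 ± 55.0 CPM at day 4. Its call was lost in 5 of 22 other settings, among them the fit without day 4 replicate 2. Edil3, an integrin-binding relative of Mfge8, had 5.22 to 6.92 CPM at day 14, against 5.94 to 10.1 CPM at day 4, and was not called (adjusted p = 0.116). At an unadjusted p under 0.05 the counts of this list were 0 higher and 3 lower, and by DESeq2 and by voom 0 and 2. Among the 6 shallower libraries, 1 was higher, C1qc, and 2 lower.

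The vitamin K enzymes that act on Gas6 and protein S, Ggcx, Vkorc1 and Vkorc1l1, gave 0 calls of 3 in edgeR's test, 0 at an unadjusted p under 0.05 and 0 by DESeq2 and by voom. Their median log2 fold change was -0.02. Ggcx, the carboxylase itself, was at 13.0 ± 1.37 CPM at day 14, against 14.8 ± 0.923 CPM at day 4 (adjusted p = 0.190). Vkorc1 was at 23.4 ± 1.75 CPM at day 14, against 22.4 ± 2.09 CPM at day 4, and Vkorc1l1 at 40.5 ± 7.36 CPM at day 14, against 41.3 ± 6.48 CPM at day 4.

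**Figure D5:**
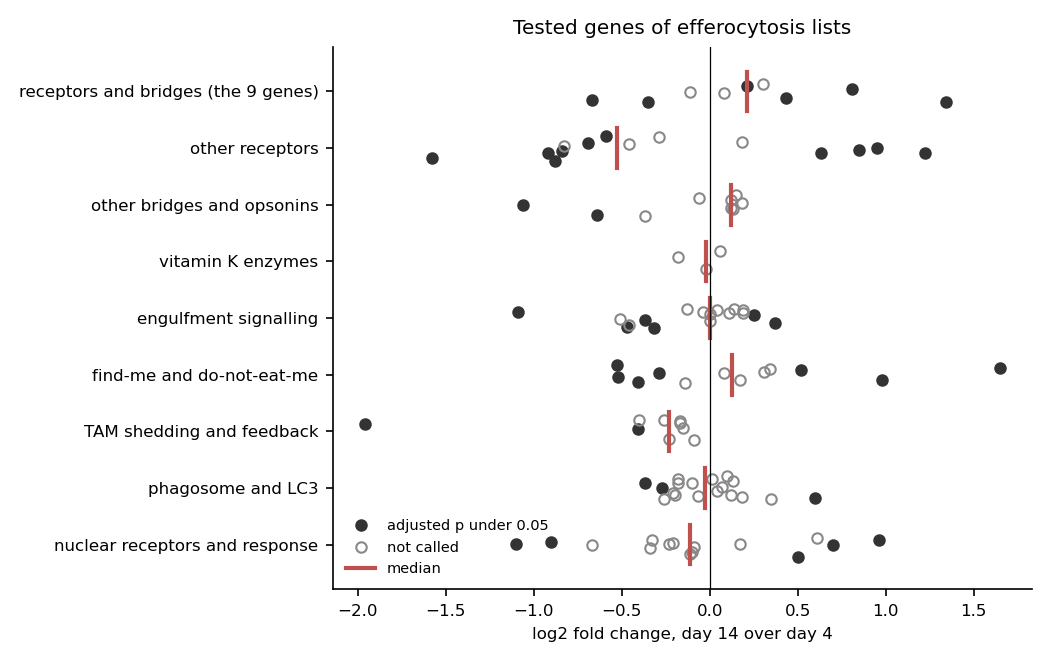
Log2 fold change of day 14 over day 4 (horizontal axis) for each tested gene of the 9 genes and of 8 further lists. Filled points had an adjusted p under 0.05, and red lines are medians. The median is 0.21 for the 9 genes and -0.53 for the other receptors.

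In the engulfment machinery below the receptors, 2 of 17 tested genes were higher and 4 lower, with a median log2 fold change of -0.00 (0 and 0 with the fibroblast covariate, and 1 and 3 there at an unadjusted p under 0.05). Besides Dock1, the higher one was Dock2, the Rac activator of blood cells, at 580 ± 32.8 CPM at day 14, against 449 ± 21.4 CPM at day 4 (adjusted p = 0.00443, edgeR). Its relative Dock5 was lower, at 39.5 ± 10.4 CPM at day 14, against 84.2 ± 18.1 CPM at day 4 (adjusted p = 0.000731). The kinase gene Abl1 was lower too (log2 fold change -0.47 ± 0.09, adjusted p = 0.00264). So were, with overlap, the Rac activator gene Vav1 (-0.32, adjusted p = 0.0212) and the GTPase gene Rhog (-0.37, adjusted p = 0.0482). Rac1, the GTPase that drives engulfment, was at 576 ± 48.2 CPM at day 14, against 506 ± 19.0 CPM at day 4 and was not called (adjusted p = 0.120).

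Of 12 genes of find-me signals and of receptors that restrain engulfment, 3 were higher and 4 lower (1 and 0 with the fibroblast covariate, and 2 and 3 there at an unadjusted p under 0.05), with a median log2 fold change of 0.12. Siglecg, an inhibitory lectin that binds CD24, was higher at 14.1 ± 1.32 CPM at day 14, against 4.48 ± 1.33 CPM at day 4 (log2 fold change 1.65 ± 0.18, adjusted p = 4.5e-05, edgeR). Sirpa, which receives the CD47 signal of living cells, was lower at 810 ± 57.8 CPM at day 14, against 1079 ± 82.7 CPM at day 4 (adjusted p = 0.00425). Panx1, the channel that releases nucleotides from dying cells, was lower (adjusted p = 0.00820, edgeR). It had 13.6 ± 2.17 CPM at day 14, against 19.4 ± 1.74 CPM at day 4. The nucleotide receptor gene P2ry2 and, with overlap, the inhibitory receptor gene Pirb were lower as well. Cx3cr1, the fractalkine receptor gene, and its ligand gene Cx3cl1 were the other pair called higher. Cx3cr1 lies where day 14 replicate 5 has no counts. It was at 76.3 ± 12.0 CPM at day 14, against 53.1 ± 9.07 CPM at day 4, with overlap (adjusted p = 0.0194, n = 4 and 4).

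Of 9 genes that shed or restrain TAM receptors, 0 were higher and 2 lower, with a median log2 fold change of -0.23 (0 and 0 with the fibroblast covariate, and 1 and 1 there at an unadjusted p under 0.05). At an unadjusted p under 0.05, 0 were higher and 4 lower, and by DESeq2 and by voom 0 and 2. Adam17, the protease that sheds Mertk, was at 310 ± 32.2 CPM at day 14, against 364 ± 37.2 CPM at day 4, and was not called (adjusted p = 0.102). Neither was Socs3, a cytokine signalling inhibitor, at 559 ± 119 CPM at day 14, against 740 ± 162 CPM at day 4 (adjusted p = 0.0861, edgeR). Twist2, a repressor of cytokine genes, was lower at 0.832 ± 0.313 CPM at day 14, against 3.26 ± 2.03 CPM at day 4 (adjusted p = 0.00302).

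Of 18 genes of the phagosome and of LC3-associated phagocytosis, 1 was higher and 2 lower, with a median log2 fold change of -0.03 (0 and 0 with the fibroblast covariate, and 0 and 5 there at an unadjusted p under 0.05). Rilp, which moves lysosomes, was the higher one at 8.37 ± 0.656 CPM at day 14, against 5.48 ± 1.27 CPM at day 4 (adjusted p = 0.0143). Dnase2a, which digests the DNA of engulfed cells, was lower at 75.2 ± 4.53 CPM at day 14, against 97.2 ± 9.55 CPM at day 4 (adjusted p = 0.00558). Atg7 of the LC3 machinery was the other one lower, with overlap (log2 fold change -0.27 ± 0.09, adjusted p = 0.0446). Its call was lost in 15 of 22 other settings. The lysosomal gene Lamp1 was at 1858 ± 167 CPM at day 14, against 2136 ± 65.3 CPM at day 4 (adjusted p = 0.105).

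Nuclear receptors sense the lipids of engulfed cells and can raise receptor genes such as Mertk. Of 15 such receptors and genes of the response, 3 were higher and 2 lower, with a median log2 fold change of -0.11 (2 and 2 with the fibroblast covariate). Nr1h3, the oxysterol receptor LXR alpha, had 13.5 to 17.4 CPM at day 14, against 29.0, 25.7, 29.1 and 31.1 CPM at day 4. It was lower in every day 14 library (log2 fold change -0.90 ± 0.10, adjusted p = 3.95e-05, edgeR). Pparg, another lipid-sensing receptor, had 40.4, 38.2, 25.1, 38.5 and 32.1 CPM at day 14, against 15.8, 19.9, 20.3 and 15.7 CPM at day 4, and was higher in every day 14 library (0.96 ± 0.15, adjusted p = 0.000437). Mylip, a target of LXR that removes the LDL receptor, was higher at 184 ± 20.4 CPM at day 14, against 114 ± 6.09 CPM at day 4 (adjusted p = 0.000193). Maf, a macrophage transcription factor, was higher with overlap (0.50 ± 0.17, adjusted p = 0.0386). Hmox1, which degrades haem, was lower at 1093 ± 190 CPM at day 14, against 2335 ± 273 CPM at day 4 (adjusted p = 9.99e-05), and Abca1, which exports cholesterol, had 1763 ± 293 CPM at day 14, against 2033 ± 340 CPM at day 4 (adjusted p = 0.287).

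For each of the 6 genes that were called, the 3 genes of most similar profile over the 9 libraries were found among 9154 genes of at least 5 CPM. Likeness was the root mean square difference of log2 CPM after each gene was centred on its own mean. Mertk was nearest to Ms4a6b, Parp14 and Dtx3l, at 0.051, 0.070 and 0.091, beside a median of 0.30 over all candidates. Elmo1 was nearest to Son, Rnf130 and Fastkd2, at 0.037, 0.043 and 0.044, beside a median of 0.23. These small values go with the small spread of Elmo1 itself, whose SD was 0.12 on the log2 scale. Pros1 was nearest to Fam49a, Wfs1 and Mbnl1, at 0.076, 0.084 and 0.086, beside a median of 0.45. Itgb5 was nearest to F11r, Slc38a10 and Ap5s1, at 0.069, 0.087 and 0.088, beside a median of 0.43. The nearest profiles of Axl (Synpo, Dpt and Plcl1, each at 0.11, median 0.32) and Timd4 (Cbfa2t3, Cenpf and Serpinb1a, at 0.21, 0.23 and 0.25, median 0.76) were less close. None of these 6 genes had another of the 9 genes among its nearest. Timd4 averaged under 5 CPM over the libraries and so could not be picked as a nearest gene.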

How the data were processed

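Macrophage RNA-seq libraries were made from total RNA with the TruSeq v2 kit, which does not mark strand, per the labels' protocols. The submitters' processing notes name build mm10 and, as tools, DESeq2, Partek 6.6, SAMtools 1.4, HISAT2 2.1.0 and CASAVA 1.8. The role of each tool, the annotation and the filters are not given in the sources used here. The authors deposited estimated counts for 18303 genes, which were rounded to whole numbers before use. They also deposited a normalized signal for 13673 genes, which matches 1 factor per library within 0.0059% for the 9 genes and was not tested.

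Differences were tested with edgeR 4.0.16 (TMM, filterByExpr, robust quasi-likelihood F test, two-sided, R 4.3.3). P-values were adjusted over 13322 genes by the Benjamini-Hochberg method, with a threshold of 0.05. The 1504 genes beyond the point where day 14 replicate 5 holds no counts were fitted without that library and adjusted together with the rest. Library sizes and scaling came from the other genes. Standard errors came from the F statistic. The scripts were tested on simulated data. Ratios were compared by exact permutation of libraries.

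CPM are TMM-scaled counts. Exon lengths are unions from GENCODE vM21 on GRCm38, promoters are from RefSeq on GRCm38.p6, and gene positions are from RefSeq, matched by symbol for 17102 genes, by an older name for 1098 and not matched for 103. Likeness used log2 of CPM plus 0.1.

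The genes and lists were chosen with earlier results of these data known. Beside the 9 genes, the text names of each list the 3 genes with the lowest adjusted p and the most abundant one. It also names the 3 nearest profiles of each called gene. Other names, such as Tyro3, Itgav, Itgb3, Dock1, Cd36, Pparg, Cx3cr1, Adam17 and C1qc, were chosen after their values were seen. The values of 1 gene that this rule picks are not reported here. Replicates are numbered in accession order.

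Alternatives were scaling by total counts, upper quartiles or RLE, DESeq2 1.42.0 (Wald test), voom of limma 3.58.1, no filter, a filter of 5 CPM in 4 libraries, non-robust dispersion, a covariate of library size or of 9 fibroblast markers (their mean log2 CPM), all genes in 9 or in 8 libraries, the 6 libraries under 30000000 counts, and each library left out. Counts per list without day 14 replicate 5 and with the fibroblast covariate were added after seeing the data.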

Additional observations from a re-analysis of the deposited data

Results flagged for a closer look

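Of 80 groups of library values examined, 2 had a library far from the others, where chance gives about 1 in 20. Dock5, a relative of the partner of Elmo1, was at 57.9 CPM in day 14 replicate 3, against 32.4 to 36.9 CPM in the other day 14 libraries. Rilp, which moves lysosomes, was at 9.53 CPM in day 14 replicate 2, against 7.97 to 8.20 CPM in the other day 14 libraries. None of the 9 efferocytosis genes had such a library among the day 14 or day 4 groups.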

How the results depend on the processing

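In the 22 alternatives, Timd4 and Pros1 kept their calls in all, Axl and Itgb5 in 21, Mertk in 15 and Elmo1 in 9. Axl lost its call among the 6 shallower libraries (0.34 ± 0.13, adjusted p = 0.102, edgeR) and Itgb5 with the fibroblast covariate. With that covariate 670 genes were called higher, 487 lower and 3 of the 9 genes either way. Among the 6 shallower libraries 1025 were higher and 1036 lower. There the log2 ratios of Axl over Mertk (0.66) and Mfge8 over Itgb5 (0.46) could not pass, since 4 against 2 libraries allow too few splits. Leaving out 1 library gave 1596 to 2457 genes higher, 1443 to 2368 lower and 4 to 6 of the 9 genes called, and ratio differences of 0.70 to 0.91 for Axl over Mertk, -0.65 to -0.36 for Gas6 over Pros1 and 0.46 to 0.62 for Mfge8 over Itgb5. Directions reversed for uncalled genes only: Stab1 (-0.04 with the fibroblast covariate and -0.03 without day 4 replicate 2), Mfge8 (0.28 with that covariate), and Vkorc1l1 (0.00 with upper-quartile scaling, 0.04 with the covariate, and 0.03, 0.05 and 0.06 without day 4 replicate 1, day 4 replicate 2 and day 14 replicate 3). Without 1 library each, Stab1 ranged up to 0.16 and Vkorc1l1 down to -0.12. The causes were not tested. Of 20 called genes of the other lists that the naming rule picked, 12 lost their call with the fibroblast covariate (among them Abl1, Atg7, Dnase2a, Dock2, Dock5, Panx1, Ptx3, Rilp, Sirpa, Thbs1 and Twist2) and 7 among the shallower libraries. Twist2 has no value under the 5 CPM filter. No paired analysis was possible because the labels give no replicate numbers shared between the days. Depth limits the precision of genes at low levels, such as Timd4 with 38 to 308 counts per library.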
